A study of Mus musculus with 6 samples.

Results

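H19, Igf2, Meg3, Rian, Mirg, Peg3, Dlk1, Cdkn1c, Plagl1 and Grb10 are 10 imprinted genes that act on growth, and they were picked by symbol from a table of 54532 genes measured by RNA sequencing of mouse femurs. Each symbol matched 1 gene. The values used come from 3 libraries of wild type (WT) mice labelled OVX, that is ovariectomized, a surgical model of bone loss after the menopause, which were given saline. They are called libraries 1, 2 and 3, and their titles carry 8, 9 and 10 weeks in that order. The study also had a group given zingerone, a phenolic compound of ginger, at 100 mg/kg per day by mouth for 8 weeks. Its 3 samples were not analysed here, because no column of values bore their names, so nothing is said of zingerone. The sources used here give no age, strain or number of animals. The labels name both ground femur and RAW264.7, a mouse macrophage-like line. The bone collagen gene Col1a1 stood at 614, 1597 and 364 FPKM (fragments divided by gene length in kilobases and by library size) in the 3 libraries.

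At an imprinted gene the copy inherited from 1 parent is silenced under the control of DNA methylation laid down in the germ line, so that only the maternal or the paternal copy is read. Many such genes are high in the fetus and fall after birth as growth slows. Paternally read genes such as Igf2, Dlk1, Peg3 and Plagl1 are mostly known for promoting growth or for keeping progenitors, and maternally read genes such as H19, Cdkn1c and Grb10 mostly for restraining it. The table holds no allele counts, so which copy was read was not measured.

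The OVX libraries were not alike in tissue content, and every difference between them has to be read beside that. The reads listed came to between 16581579 and 17017907 a library. The summed level of 8 skeletal muscle markers was 1055, 79.6 and 691.5 FPKM in libraries 1, 2 and 3. That of 8 cartilage markers was 24.8, 561 and 54.0 FPKM, and that of 8 osteoblast markers 1798, 4327 and 1364 FPKM. Library 2 was thus lowest in muscle and highest in cartilage and osteoblast transcripts. In tissue RNA, fewer cells of a type and less RNA per cell cannot be told apart. Whether the libraries came from separate animals is not stated beyond the word biological, so p-values here compare these libraries and not conditions, and the spread may be technical. Each library also has a title week of its own, and what the weeks count is not stated, so library and week cannot be told apart.

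The 10 genes ranged from H19 at up to 16.6 FPKM to Igf2 with 1 read in all 3 libraries. By mean FPKM the order was H19, Cdkn1c, Grb10, Plagl1, Peg3, Meg3, Rian, Dlk1, Mirg and Igf2. Only the first 4 reached a mean of 1 FPKM, the minimum for testing, and 6 stayed below it. The library values of H19 overlapped those of Cdkn1c, those of Cdkn1c overlapped those of Grb10, those of Grb10 overlapped those of Plagl1, and those of Dlk1 overlapped those of Mirg. Neighbours in that order did not overlap from Plagl1 to Peg3, Peg3 to Meg3, Meg3 to Rian, Rian to Dlk1 or Mirg to Igf2, the last pair on 11 reads and 1 read in all. Together the genes held 0.0101%, 0.00998% and 0.00773% of all reads in libraries 1, 2 and 3. H19 made up 41.0%, 3.25% and 24.8% of these reads, and Grb10 24.5%, 42.2% and 29.3%.

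**Figure D1:**
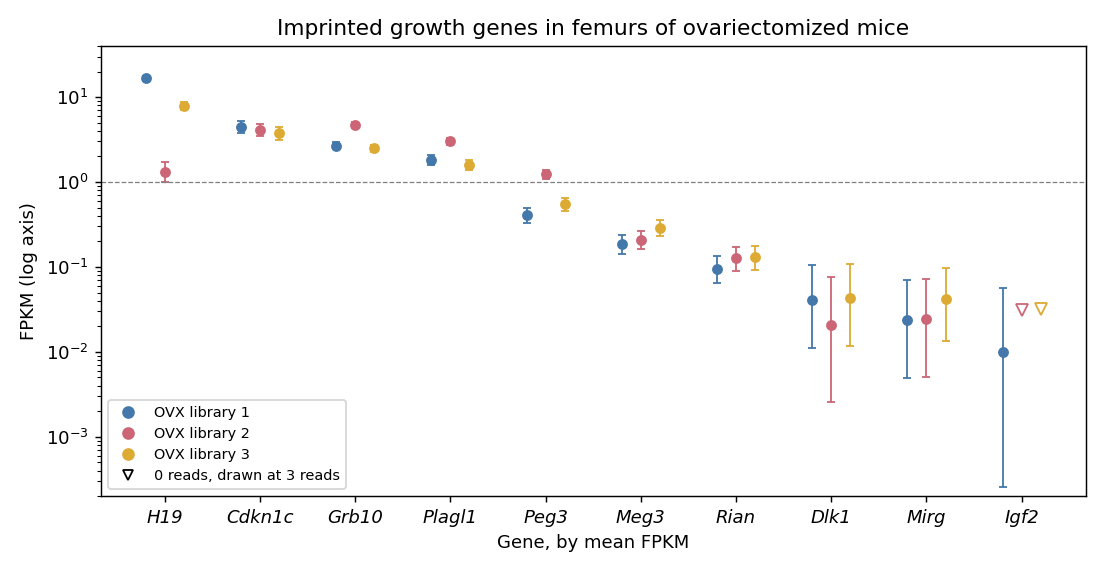
FPKM of each gene (log axis) in OVX libraries 1, 2 and 3, with exact Poisson 95% intervals from the reads and a dashed line at 1 FPKM. H19 ran from 1.33 to 16.6 FPKM, whereas the Igf2 values rest on 1, 0 and 0 reads, with 0 drawn as an open triangle at 3 reads.

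H19, a maternally read long noncoding RNA abundant in fetal muscle and other embryonic tissues, was the most variable of the 10. The gene lies on the minus strand of mm10 chromosome 7, from 142575529 to 142578143, and was counted over 2460 exonic bases. Libraries 1, 2 and 3 gave 704, 55 and 317 reads of H19, or 16.6, 1.33 and 7.79 FPKM. Library 1 was high, library 3 intermediate and library 2 low. Their exact Poisson intervals were apart, at 15.4 to 17.8 FPKM in library 1, up to 1.73 in library 2 and 6.96 to 8.70 in library 3. The highest value was 12.5 times the lowest, more than counting noise gives (adjusted p = 5.9e-126 by a chi-square test of the reads against library totals, with Benjamini-Hochberg adjustment over every gene tested). The range on the log2(FPKM + 1) scale was 2.92, wider than in 99.6% of the 14011 genes tested, whose median was 0.175. Among the 4 tested members H19 was the only one with an at least 2-fold range on that scale, which 5.89% of all tested genes reached. A gene below 1 FPKM in every library cannot reach it. Without library 2 its range on that scale was 0.998, just short of 2-fold, and without library 1 it was 1.92. The 825 genes at that range were 278 without library 2 and 521 without library 1. In FPKM the difference without library 2 was 2.13-fold (adjusted p = 1.6e-29 by the same test), and without library 1 it was 5.87-fold (adjusted p = 1.46e-41).

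The H19 transcript is also the precursor of miR-675, which is why its mature strands are shown. They are given 5′ to 3′ from RefSeq (GRCm38.p6), with the seed, bases 2 to 8, in capitals, at chr7:142577112-142577133 for the 5p strand and chr7:142577078-142577099 for the 3p strand, both on the minus strand within the H19 gene.
mmu-miR-675-5p: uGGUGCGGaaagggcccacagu
mmu-miR-675-3p: cUGUAUGCccuaaccgcucagu
The separate table entry for Mir675 had 0 reads in all 3 libraries. That gene lies inside H19, and reads that overlap 2 listed genes may go to neither, depending on counting settings that the sources used here do not state. The libraries were made from total RNA, with no selection for small RNA stated.

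The order of H19 across libraries was also that of the muscle markers. By the rule of closest log2(FPKM + 1) deviations over the 3 libraries, the genes most like H19 among 14010 others were Casq1, Myh4 and Mylpf. Casq1 encodes the calcium-binding protein of the muscle sarcoplasmic reticulum and had 29.3, 3.35 and 15.6 FPKM. Myh4, a fast myosin heavy chain, had 69.9, 8.76 and 38.5 FPKM, and Mylpf, the fast myosin light chain, 239.8, 28.3 and 127.5 FPKM. The widest departure of any of the 3 from H19 in a library was 0.113 on the log2 scale, for Mylpf. This likeness rests on 3 libraries only, and it is a description. All 8 muscle markers were lowest in library 2, and 7 of them were highest in library 1. Per 1000 FPKM of summed muscle markers, H19 stood at 15.7, 16.7 and 11.3 FPKM, a 1.48-fold range against 13.3-fold for the markers themselves. The part of muscle content in the H19 difference was not tested.

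**Figure D2:**
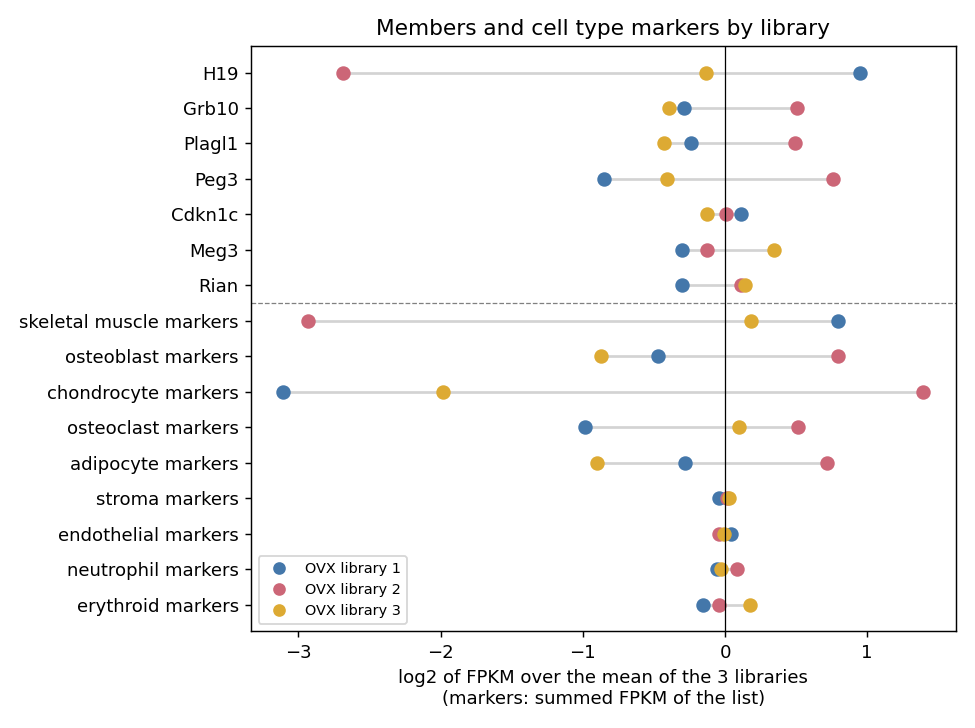
Log2 of each value over its own mean of the 3 OVX libraries, for 7 of the genes (above the dashed line) and for the summed FPKM of 9 marker lists (below it). H19 and the muscle markers had library 2 far to the left, at 1.33 and 79.6 FPKM, and Grb10, Plagl1 and Peg3 had it to the right with the osteoblast, cartilage, osteoclast and adipocyte markers.

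Igf2, the paternally read fetal growth factor that shares an imprinting control region with H19, was near the limit of detection. The gene (mm10 chromosome 7, 142650766 to 142666816, minus strand) had 1, 0 and 0 reads in libraries 1, 2 and 3. The single read gives 0.0101 FPKM in library 1. By exact Poisson 95% intervals the counts leave room for up to 0.0563 FPKM in library 1, 0.0383 in library 2 and 0.0390 in library 3. The antisense entry Igf2os, which overlaps Igf2, held 2 reads in library 1 and 0 in the others. The entry Gm49394, which overlaps Igf2 on the same strand, held 0 reads in all 3 libraries, and so did Mir483. Gm49394 runs from 142650769 to 142669942, over nearly the whole of Igf2, so that reads of Igf2 may have been counted for neither gene. How far this lowered the count of Igf2 was not tested.

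Cdkn1c and Grb10 are the growth-restraining protein-coding genes of the group. Cdkn1c, which encodes the cell cycle inhibitor p57 and lies on mm10 chromosome 7 from 143458339 to 143461050, was read 157, 142 and 127 times in libraries 1, 2 and 3, which gives 4.46, 4.13 and 3.77 FPKM. The 3 values were close, at 4.12 ± 0.345 FPKM (SD, n = 3), and at this depth no difference could be detected (adjusted p = 0.414 by the chi-square test). The ratio of library 1 to library 3 was 1.18, with an exact interval from 0.930 to 1.51. Of the 6 other cyclin-dependent kinase inhibitors, 4 were tested and 1 differed between libraries, or 25%, against 38.7% of all tested genes. That was Cdkn1a, which encodes p21, at 5.36, 9.71 and 6.52 FPKM (adjusted p = 8.88e-17 by the chi-square test). Cdkn2d, Cdkn2c and Cdkn1b were all several-fold above Cdkn1c per length in each library, the lowest of them, Cdkn1b, at 41.0, 41.0 and 39.9 FPKM. The entry Gm44732 lies inside Cdkn1c on the other strand, from 143459749 to 143460640, and held 0 reads in all 3 libraries. Reads there may have been counted for neither gene, and how far this lowered the count of Cdkn1c was not tested.

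Grb10, an adaptor that restrains signalling from the insulin and IGF receptors, was highest in library 2. The gene lies on mm10 chromosome 11 from 11930508 to 12038683 on the minus strand. Its 421, 715 and 375 reads in libraries 1, 2 and 3 give 2.68, 4.67 and 2.50 FPKM. Library 2 stood above the other libraries, whose exact Poisson intervals, 2.43 to 2.95 and 2.25 to 2.76 FPKM, overlapped each other. The difference was 1.87-fold and passed the chi-square test (adjusted p = 1.84e-27). Without library 2 it was 1.07-fold and no longer passed (adjusted p = 0.43 by the same test). Of the 3 other Grb adaptors listed, Grb2 and Grb7 were tested, and only Grb2, at 66.4, 67.7 and 73.6 FPKM, passed the test that 38.7% of all tested genes passed.

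Plagl1, a paternally read zinc finger transcription factor also called Zac1 that acts on other imprinted genes, had the same order of libraries as Grb10. It lies on the plus strand of mm10 chromosome 10, between 13060504 and 13131694. Libraries 1, 2 and 3 held 245, 397 and 206 of its reads, or 1.81, 3.01 and 1.59 FPKM. Library 2 was again the high one, and the intervals of libraries 1 and 3, 1.59 to 2.06 and 1.38 to 1.83 FPKM, overlapped. The 1.89-fold difference passed the chi-square test (adjusted p = 1.85e-14) and became 1.14-fold without library 2 (adjusted p = 0.307 by the same test). Its relative Plagl2 was lowest in library 2 instead, at 14.3, 13.3 and 15.7 FPKM (adjusted p = 0.000383 by the chi-square test).

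Peg3, a paternally read zinc finger gene expressed in the embryo and in adult progenitors of mesoderm, was also highest in library 2, where it crossed 1 FPKM. The gene (mm10 chromosome 7, 6703892 to 6730431, minus strand) was covered by 93, 276 and 121 reads in libraries 1, 2 and 3, equal to 0.404, 1.23 and 0.549 FPKM. Its mean of 0.728 ± 0.441 FPKM (SD, n = 3) lay under the minimum for testing. Among all 27755 genes with any read, the 3.04-fold difference passed the same test (chi-square, adjusted p = 2.01e-24), as 22.4% of those genes did. Libraries 1 and 3 were nearer to each other, at a ratio of 0.735 with an exact interval from 0.555 to 0.972. Zim1, an imprinted neighbour of Peg3, was rare but had 37 of its reads in library 2, against 5 in library 1 and 10 in library 3.

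Grb10, Plagl1 and Peg3 were thus the members highest in library 2, the library richest in osteoblast, cartilage, osteoclast and adipocyte transcripts. Per 1000 FPKM of summed osteoblast markers, Grb10 stood at 1.49, 1.08 and 1.83, Plagl1 at 1.01, 0.697 and 1.17, and Peg3 at 0.225, 0.284 and 0.403 FPKM. On that measure Grb10 and Plagl1 were lowest in library 2 and Peg3 was intermediate there. The ranges on it were 1.70-fold, 1.68-fold and 1.79-fold, against 1.87-fold, 1.89-fold and 3.04-fold in FPKM for the same genes. The range of Grb10 and Plagl1 was thus little narrower, with another library at the extreme. The summed markers had a 3.17-fold range. The part of bone or cartilage content in these differences was not tested. Their promoters are shown because silencing marks at imprinted genes are laid on CpG pairs, which stand in capitals. Each is 300 bases from RefSeq (GRCm38.p6), from 250 bases before 1 transcript start to 50 after it, written 5′ to 3′ on the strand of the gene. All 3 starts lie inside the gene bounds given above, which span all listed transcripts. The windows are at chr11:12037371-12037670, chr10:13090582-13090881 and chr7:6730370-6730669 in the order given.
Grb10 promoter: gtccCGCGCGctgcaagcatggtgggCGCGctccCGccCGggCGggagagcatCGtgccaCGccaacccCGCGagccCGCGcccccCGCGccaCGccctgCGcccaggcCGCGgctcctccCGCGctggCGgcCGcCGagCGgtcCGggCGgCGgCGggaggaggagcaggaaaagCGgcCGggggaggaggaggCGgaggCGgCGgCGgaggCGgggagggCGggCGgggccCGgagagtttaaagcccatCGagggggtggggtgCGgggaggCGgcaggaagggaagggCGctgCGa
Plagl1 promoter: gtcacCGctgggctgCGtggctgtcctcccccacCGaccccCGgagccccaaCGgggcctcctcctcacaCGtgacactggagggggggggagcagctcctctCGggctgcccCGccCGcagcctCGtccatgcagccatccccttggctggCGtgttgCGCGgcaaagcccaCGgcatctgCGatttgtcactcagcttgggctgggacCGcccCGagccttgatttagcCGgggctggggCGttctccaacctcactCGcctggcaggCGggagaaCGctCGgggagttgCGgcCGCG
Peg3 promoter: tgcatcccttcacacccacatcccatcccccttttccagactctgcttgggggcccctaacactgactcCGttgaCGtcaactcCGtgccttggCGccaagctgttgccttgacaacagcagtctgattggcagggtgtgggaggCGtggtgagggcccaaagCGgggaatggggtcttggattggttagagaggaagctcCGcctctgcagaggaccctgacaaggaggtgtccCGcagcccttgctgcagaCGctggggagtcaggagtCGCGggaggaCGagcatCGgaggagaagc
The motif was the letters CG, which read the same on both strands and cannot overlap themselves. Grb10 held 45, Plagl1 26 and Peg3 13 in these windows. At least as many were held by 1.93%, 16.9% and 37.9% of the 32851 promoters of that length, of which 94.6% had at least 1 and whose median was 7. A second Grb10 start at chr11:12027922-12028221 held 9. Methylation was not measured, and the reads do not say which start was used. Whether any of these windows lies where the silencing mark is laid was not examined.

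**Figure D3:**
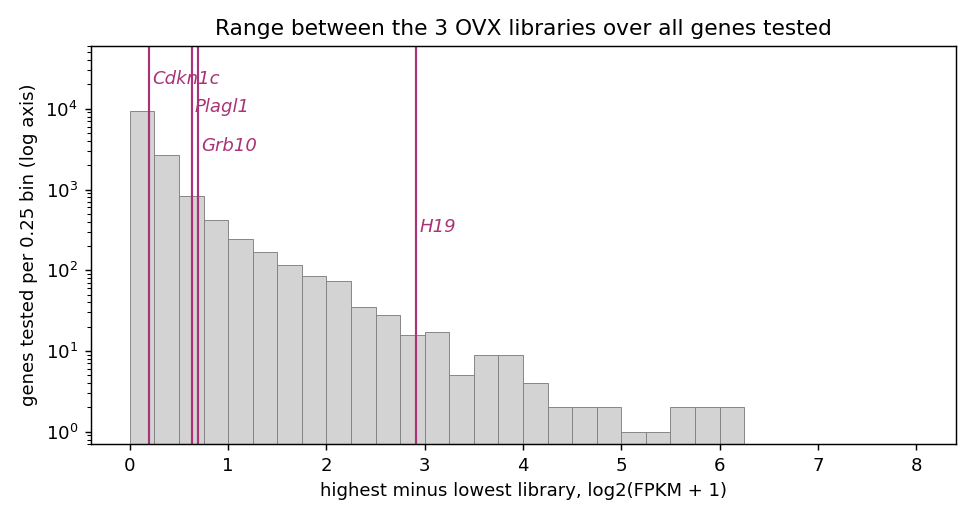
Number of tested genes (log axis) by the difference between their highest and lowest OVX library on the log2(FPKM + 1) scale, with the 4 tested members as vertical lines. H19 lies in the tail at 2.92, Grb10 and Plagl1 at 0.70 and 0.63, and Cdkn1c at 0.19, near the median of 0.175.

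Of the 4 tested members, 3 (H19, Grb10 and Plagl1) differed between libraries by more than counting noise and Cdkn1c did not pass. Over all 14011 tested genes 38.7% differed, so that such a difference is common in these libraries and depends on read depth. Grb10 and Plagl1 were called and highest in library 2, as were 13% of all tested genes, and H19 was called and highest in library 1, as were 15.3%. H19 was also called and lowest in library 2, as were 16.5%. No tested member was called and highest in library 3, where 10.4% of all tested genes were. With only 4 tested members these shares say nothing particular about the group.

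The chromosome 12 cluster, where Dlk1 is read from the paternal copy and Meg3, Rian and Mirg from the maternal copy, was low throughout. Between the start of Dlk1 and the end of Mirg (mm10 chromosome 12, 109452823 to 109749460) the table lists 104 genes. Of these, 8 had any read, and the whole interval held 102, 111 and 136 reads in libraries 1, 2 and 3. Meg3, a nuclear long noncoding RNA, took 56.9%, 57.7% and 64.0% of them. It had 0.186, 0.210 and 0.291 FPKM from 58, 64 and 87 reads. Library 3 was highest and its interval, 0.233 to 0.359 FPKM, overlapped both others. The ratio of library 1 to library 3 was 0.638, with an exact interval from 0.450 to 0.900. Rian, the host of the C/D small nucleolar RNAs of the cluster, had 0.0952, 0.127 and 0.129 FPKM from 30, 39 and 39 reads. Among all genes with a read, neither passed the chi-square test, with adjusted p = 0.0821 for Meg3 and adjusted p = 0.555 for Rian. Other listed genes overlap Meg3 (5), Rian (19) and Mirg (15), and reads shared with them may have been counted for neither gene. Among them Gm26906 spans 109568628 to 109571723, at the end of Meg3 on the other strand. How far such overlaps lowered the counts of Meg3, Rian and Mirg was not tested.

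Mirg, the host transcript of a group of microRNAs, had 3, 3 and 5 reads in libraries 1, 2 and 3, or 0.0238, 0.0244 and 0.0415 FPKM. Dlk1, a transmembrane relative of the Notch ligands that holds back adipocyte differentiation, had 4, 2 and 4 reads, or 0.0409, 0.0210 and 0.0428 FPKM. Counts of this size have wide intervals, such as 0.00254 to 0.0758 FPKM for Dlk1 in library 2, and no difference was detectable. Adipocyte transcripts were present in the same libraries, with Adipoq, the adipokine adiponectin, at 58.5, 73.0 and 52.3 FPKM. Of the other adipocyte markers listed, Fabp4 was about as even, at 41.7, 51.2 and 40.9 FPKM. Cfd, at 55.1, 184 and 9.25 FPKM, and Plin1, at 1.67, 4.92 and 0.117 FPKM, were far lower in library 3. Lep had 9, 26 and 0 reads. The 66 microRNA and 23 small nucleolar RNA genes listed in the interval held 6 reads in all, 5 of them on Gm27379 in library 1 and 1 on Mir666 in library 2. Of the mature microRNAs in RefSeq, 26 lie within Mirg on its strand, 6 within Rian and 3 within Meg3. Rtl1 of the same cluster had 0 reads, and Dio3, which lies beyond Mirg, had 5, 0 and 3.

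Levels depended on the length by which reads were divided, most for Rian and Meg3. The listed length of all 10 genes equals the union of all exons in GENCODE release M21, and their coordinates match that release. For Meg3 this union is 18089 bases over 11 transcripts and for Rian 18234 bases over 20, whereas the median length in the basic transcript set is 1942 and 789.5 bases. Divided by the median basic length, Meg3 averaged 2.13 ± 0.514 FPKM instead of 0.229 ± 0.0551 at the listed length (SD, n = 3). Rian averaged 2.71 ± 0.440 instead of 0.117 ± 0.0191 FPKM (SD, n = 3). On that scale Rian and Meg3 came before Peg3, at 1.12 ± 0.676 FPKM, and Grb10, at 6.27 ± 2.30, came before Cdkn1c, at 4.43 ± 0.371 (SD, n = 3 each). Plagl1 averaged 4.24 ± 1.52 instead of 2.14 ± 0.765 FPKM (SD, n = 3), and Dlk1, Mirg and Igf2 stayed last. H19 had the highest mean, 9.21 ± 8.23 FPKM (SD, n = 3), which rests on library 1. Without that library H19 averaged 4.91 FPKM and Grb10 6.85 FPKM on that scale. In library 2, H19 at 1.43 FPKM lay below Grb10, Plagl1, Cdkn1c, Rian, Meg3 and Peg3. The choice of length does not enter comparisons of 1 gene between libraries.

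**Figure D4:**
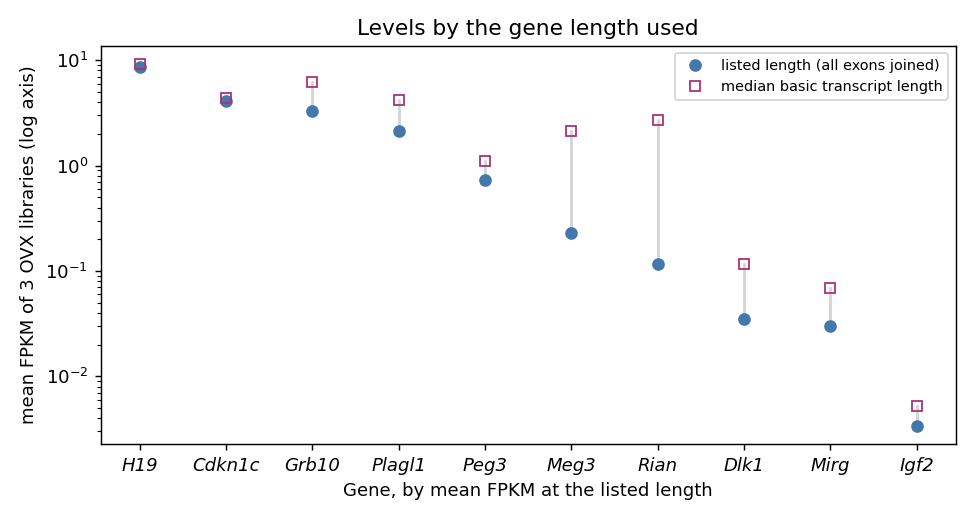
Mean FPKM of the 3 OVX libraries (log axis) for each gene, at the listed length (filled circles) and at the median length of its basic transcripts (open squares). The gap is widest for Rian, at 0.117 and 2.71 FPKM, and for Meg3, at 0.229 and 2.13 FPKM, and narrow for H19 and Cdkn1c.

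None of the other imprinted genes that were tested showed such a spread as H19, and the scale used understates low genes. Of 57 further symbols, among them Zac1, the other name of the member Plagl1, 55 were in the table under the name listed. Of these, 22 were tested and 5 had no read in any library. Whether each gene on this list is imprinted in the femur was not measured. The highest on the list were Cd81, a tetraspanin, at 39.3, 44.0 and 41.1 FPKM and Dcn, the matrix proteoglycan decorin, at 32.6, 59.9 and 22.6 FPKM. Between libraries 8 of the 22 passed the chi-square test, or 36.4% against 38.7% of all tested genes. Their median range on the log2(FPKM + 1) scale was 0.16, against 0.175 over all tested genes. Among the 8 called genes Dcn had the widest range, 1.37, followed by Gab1, a docking protein of receptor kinases, at 5.20, 7.02 and 6.18 FPKM, and the splicing factor gene Zrsr1 at 4.86, 5.01 and 6.07 FPKM. Igf2r, which clears IGF2 from the cell surface, had 7.46, 8.61 and 7.75 FPKM, and its antisense partner Airn 1.11, 0.974 and 1.13 FPKM. These genes overlap on opposite strands, and reads cannot be told apart between them without strand.

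Genes of the IGF pathway ranged widely in level. Igf1, the growth factor of postnatal life, had 5.38, 5.32 and 4.48 FPKM in libraries 1, 2 and 3, and the receptor genes Igf1r and Insr had 6.56, 6.59 and 6.57 and 6.18, 6.17 and 6.11 FPKM. The binding protein genes Igfbp4 and Igfbp5 led the list, at 122, 143 and 126 and at 102, 77.0 and 96.7 FPKM, whereas Igfbp2 had 2, 11 and 3 reads and Igfbp1 none. Of 22 genes on the list 14 were tested and 11 passed the chi-square test between libraries, or 78.6%, against 38.7% of all tested genes. Of the 14 tested, 8 were called and highest in library 2, as were 13% of all tested genes. The widest range was that of Stc2, an inhibitor of the IGF binding protein protease PAPP-A, at 0.324, 3.43 and 0.514 FPKM (adjusted p = 1.37e-78 by the chi-square test). Igfbp6 was highest in library 3 instead, at 4.01, 3.90 and 7.23 FPKM. Igfbp3, the insulin receptor substrate gene Irs1 and the protease gene Htra1 were highest in library 2, at 6.85, 2.42 and 8.02 FPKM. The median range was 0.35 on the log2(FPKM + 1) scale. Without library 2 the test called 10 of 57 genes over this and the other lists of related genes, against 30 of 59 with it. Over all genes it called 2527 of 14045 without that library and 5418 of 14011 with it.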

How the data were processed

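The authors deposited 1 table of FPKM values by gene, with 1 gene length in bases, per the file header. Per the submitters' processing notes, Trimmomatic, FastQC, STAR and featureCounts were used with mm10; the sources used here give no versions, strandedness or counting settings. The authors used DESeq2 and limma, per the series' design text, and these were not rerun. Columns had to carry a library name found in the labels, which held for the 3 OVX libraries. A further 3 columns of values carried none and were left out, so the planned limma test of zingerone was not run.

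FPKM times length came out as whole reads, to within 0.01 read, for 100% of values. The chi-square test compared reads with library totals over genes whose mean reached 1 FPKM, with Benjamini-Hochberg adjustment and a threshold of 0.05. It was run on simulated reads that held only counting noise and set changes. Such reads cannot show how it behaves where libraries vary more than that. It compares libraries, not conditions. Intervals are exact Poisson (ratios: exact binomial) at 95%, and with the floor of 3 reads they cover counting error only. Ranges used log2(FPKM + 1), which understates low genes. Named genes were the 10 members, at most 5 called genes with the widest range from each other list, and the 3 genes most like the most variable member. Grb7, Zfp57 and Dlk2 were named outside this rule, as they were not called. Cd81, Zim1, Airn, Igf1, Igf1r, Insr, Igfbp1, Igfbp2, Igfbp4, Igfbp5, Adipoq, Fabp4, Cfd, Plin1, Lep, Cdkn2d, Cdkn2c, Cdkn1b, Rtl1, Dio3, Gm27379, Mir666, Col1a1 and the entries overlapping a member were named after their values were seen. Members, lists and markers were chosen with earlier results of these data known. RefSeq promoters were found for 8 of 10 members. Tests were run with scipy 1.17.1 and numpy 2.4.6, tables were handled with pandas 2.3.3 and figures were drawn with matplotlib 3.10.9, under Python 3.11.15.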

Additional observations from a re-analysis of the deposited data

How the results depend on the processing

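No paired analysis was possible because only OVX libraries were used. The comparison of zingerone with OVX, and every alternative to it, was not run. H19 stayed past the threshold, and Cdkn1c short of it, under each alternative that tested them. These were no filter, median-of-ratios scaling, the totals behind the authors' FPKM and each library left out, and for H19 also a minimum of 5 FPKM. Grb10 and Plagl1 stayed past it except without library 2, where their adjusted p by the chi-square test was 0.43 and 0.307. The count of all genes that differed between libraries, 5418, ran from 2527 without library 2 to 4177 without library 3, and was 3478 without library 1. It was 6205 of 27755 with no filter, 3787 of 8436 at a mean of at least 5 FPKM, 5235 with median-of-ratios scaling and 5234 with the authors' totals. Over the lists of related genes the count of 30 ran from 10 without library 2 to 26 without library 1. The 10 members summed to 19.2 ± 6.16 FPKM (SD, n = 3), from 15.7 to 21.5 with 1 library left out, and to 30.3 when each was divided by its median basic transcript length, an alternative chosen after seeing the data. The 825 genes with at least a 2-fold range became 1254 with a pseudocount of 0.1 and 247 with one of 5, 307 over genes whose mean reached 5 FPKM, and from 278 without library 2 to 603 without library 3. The H19 range of 2.92 was 1.77 with a pseudocount of 5 and from 0.998 without library 2 to 2.92 without library 3. Depth limits Dlk1, Mirg and Igf2, with 10, 11 and 1 reads in all.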

Other observations

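Genes that keep or remove the methylation of imprinted regions ranged from Uhrf1 at the top to 5 genes under a mean of 1 FPKM. Uhrf1 and Dnmt1, which copy methylation to the new strand at replication, had 66.6, 64.8 and 68.1 FPKM and 48.5, 45.3 and 49.9 FPKM in OVX libraries 1, 2 and 3. Of 15 such genes 10 were tested and 5 passed the chi-square test between libraries, or 50%, against 38.7% of all tested genes. The widest range among the called genes was 0.21 on the log2(FPKM + 1) scale, for the methylcytosine oxidase gene Tet3, at 10.8, 9.25 and 10.8 FPKM. The de novo methyltransferase gene Dnmt3a had 8.29, 7.47 and 8.58 FPKM and Smchd1, a chromosomal protein of silenced loci, 8.30, 7.82 and 8.32 FPKM. Zfp57, a zinc finger protein that guards imprints in the early embryo, had 13, 11 and 12 reads.

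Of 10 Notch ligands and receptors, the family to which Dlk1 is related, 7 were tested and 4 differed between OVX libraries by the chi-square test, or 57.1%, against 38.7% of all tested genes. Notch3 had 4.20, 6.15 and 4.98 FPKM, Notch4 1.90, 2.28 and 1.64, Jag2 1.73, 1.30 and 1.23, and Notch1 7.48, 7.96 and 8.69 FPKM in libraries 1, 2 and 3. Dlk2, the closest relative of Dlk1, had 2, 2 and 4 reads, about as few as Dlk1 with 4, 2 and 4.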
